A study of Homo sapiens with 12 samples.

Results

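Long intergenic noncoding RNAs (lincRNAs) that were well counted in Ovcar8, a cell line grown from a high-grade serous carcinoma of the ovary, were followed through a gain of cyclin E1 and a loss of the carnitine synthesis enzyme TMLHE. A gene was taken when the deposited count table called it a lincRNA and its mean raw count over the 12 libraries was at least 100, leaving out by name the SNHG genes with a number, GAS5, ZFAS1, DANCR and EPB41L4A-AS1, known as hosts of small nucleolar RNAs. The rule gave 57 genes of the 58735 in the table and of the 7629 it calls lincRNA, and 6 further genes that reached the mean were left out by name. The genes were chosen by their mean count over all libraries, so levels are described here without a test, and no difference between groups entered the rule. A mean over 12 libraries can still be reached through the group in which a gene is high: 38 of the 57 had a mean of at least 100 in each of the 4 groups and 19 did not, among them NEAT1, AC245041.1, AC245041.2, MUC20-OT1, MIR503HG, MIRLET7BHG, LINC01819, GAS6-DT, UCA1, BX890604.2, AC084033.3, AC144652.1 and FLJ20021. The choice favours a difference in these 19, so their tests do not stand apart from it. The last genes inside the limit were AP001505.1, FLJ20021 and AC005332.6 with mean counts of 110.8, 104.5 and 102.5, and the first outside were BX284668.2, LINC00472 and EIF3J-DT with 93.42, 92.92 and 92.42.

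RNA-seq was run on 4 groups of 3 libraries each. The first was labelled control, the second CCNE1 overexpression, and the other groups carried CCNE1 overexpression together with 1 of 2 short hairpin RNAs, labelled shTMLHE #1 and shTMLHE #2. All groups had been transduced with lentivirus and kept in puromycin at 3 ug/ml for 2 to 3 days, and the hairpin groups have no counterpart here without CCNE1 overexpression. No group analysed here is labelled as carrying a hairpin without a target, so loss of TMLHE and expression of a hairpin as such cannot be told apart in any hairpin comparison. The comparisons asked what CCNE1 overexpression changed against control, and what each hairpin changed against CCNE1 overexpression. The labels do not say whether the 3 libraries of a group came from separate cultures, and the p-values therefore reflect only how far these libraries scatter, which may be technical.

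A lincRNA is transcribed and usually spliced like a messenger RNA but has no conserved reading frame. Some lincRNAs stay in the nucleus and hold nuclear bodies together, some bind proteins in the cytoplasm, some are the precursors from which microRNAs are cut, and many start beside a coding gene, from a promoter that fires in both directions. Cyclin E1, encoded by CCNE1, drives the entry into S phase and is often amplified in high-grade serous cancer, while TMLHE starts the synthesis of carnitine, which carries acyl groups between the compartments of the cell.

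Libraries held 14054101 to 21457503 counts. CCNE1 averaged 33.06 CPM (the count scaled to a common library size, with TMM factors) in control and 1001, 1269 and 847.1 CPM in the groups with CCNE1 overexpression, shTMLHE #1 and shTMLHE #2. TMLHE averaged 16.5, 15.73, 0.9561 and 0.4823 CPM in the same order. Of 9 markers of serous ovarian cancer, PAX8, KRT7, KRT8, KRT18, VIM and EPCAM were counted well enough to test, while WT1 reached at most 12 counts in a library, KRT19 at most 15 and MUC16 was at 0 in every library. PTPRC, which marks leukocytes, had 0 to 2 counts, PECAM1, which marks endothelium, 0 to 6 and DCN, which marks fibroblasts, 0.

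The 57 lincRNAs together took 0.176% ± 0.00334 of all counts in control (SD, n = 3), 0.147% ± 0.0019 with CCNE1 overexpression, 0.159% ± 0.00107 with shTMLHE #1 and 0.173% ± 0.00211 with shTMLHE #2. Per kilobase of exon, LINC00942, SFTA1P and AL161431.1 led in control with 116, 104 and 97.4 CPM per kb, and the same genes led with CCNE1 overexpression at 82.7, 86.3 and 67.0 and with shTMLHE #1 at 57.7, 57.7 and 25.7. SFTA1P still led with shTMLHE #2 at 80.1 CPM per kb, LINC00942 followed at 39.2, and AC245041.1, MIR22HG and NORAD came next at 20.5, 20.2 and 19.5. MALAT1 stood 41st per kb of the 57 in control, 36th with CCNE1 overexpression and 7th with each hairpin, and NEAT1 stood 57th, 57th, 55th and 54th. AL161431.1 alone made up 24.2% of the CPM of all 57 in control and 6.95% with shTMLHE #2, while MALAT1 went from 1.18% to 11.2%. The number of exons of the longest transcript had a median of 2 against 7 over all tested genes, and 22.8% of the lincRNAs had a longest transcript of 1 exon against 9.15% of all tested genes. They lie on 21 chromosomes, 8 of them on chromosome 10.

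CCNE1 overexpression raised 11 of the 57 lincRNAs over control and lowered 19, so that 52.6% passed an adjusted p of 0.05 against 44.2% of all 15378 genes tested (25.1% higher, 19.1% lower, edgeR quasi-likelihood test with Benjamini-Hochberg adjustment). Their median log2 difference was -0.119 against 0.0473 over all genes. With shTMLHE #1, 15 were higher and 23 lower than with CCNE1 overexpression alone, which made 66.7% against 60.7% of all genes (30.4% higher, 30.3% lower), with a median of -0.039 against 0.034. With shTMLHE #2, 13 were higher and 28 lower, 71.9% against 73% of all genes (36.8% higher, 36.2% lower), and the median was -0.307 against 0.0306. Between the hairpins, 23 were higher with shTMLHE #1 and 17 with shTMLHE #2, 70.2% against 60.3% of all genes (31.3% and 29%). Without the 19 that fell below 100 in a group, 5 were higher and 16 lower with CCNE1 overexpression, 8 and 15 with shTMLHE #1, 9 and 19 with shTMLHE #2, and 16 and 13 between the hairpins. The shares of lincRNAs called lay near those of all genes, and 9923 other genes with a mean count of at least 100 were called at 58.3%, 75.2%, 85.9% and 77.5%. The 3 libraries of each group did not overlap for 33, 38, 44 and 43 of the lincRNAs in these comparisons, against 47.2%, 63.9%, 75.6% and 69.7% of all genes. RNA was taken from whole cultures, so fewer cells that make an RNA and less of it in each cell cannot be told apart. Both hairpin comparisons and the CCNE1 comparison use the same 3 CCNE1 overexpression libraries, so their values are set side by side and not compared for agreement.

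**Figure D1:**
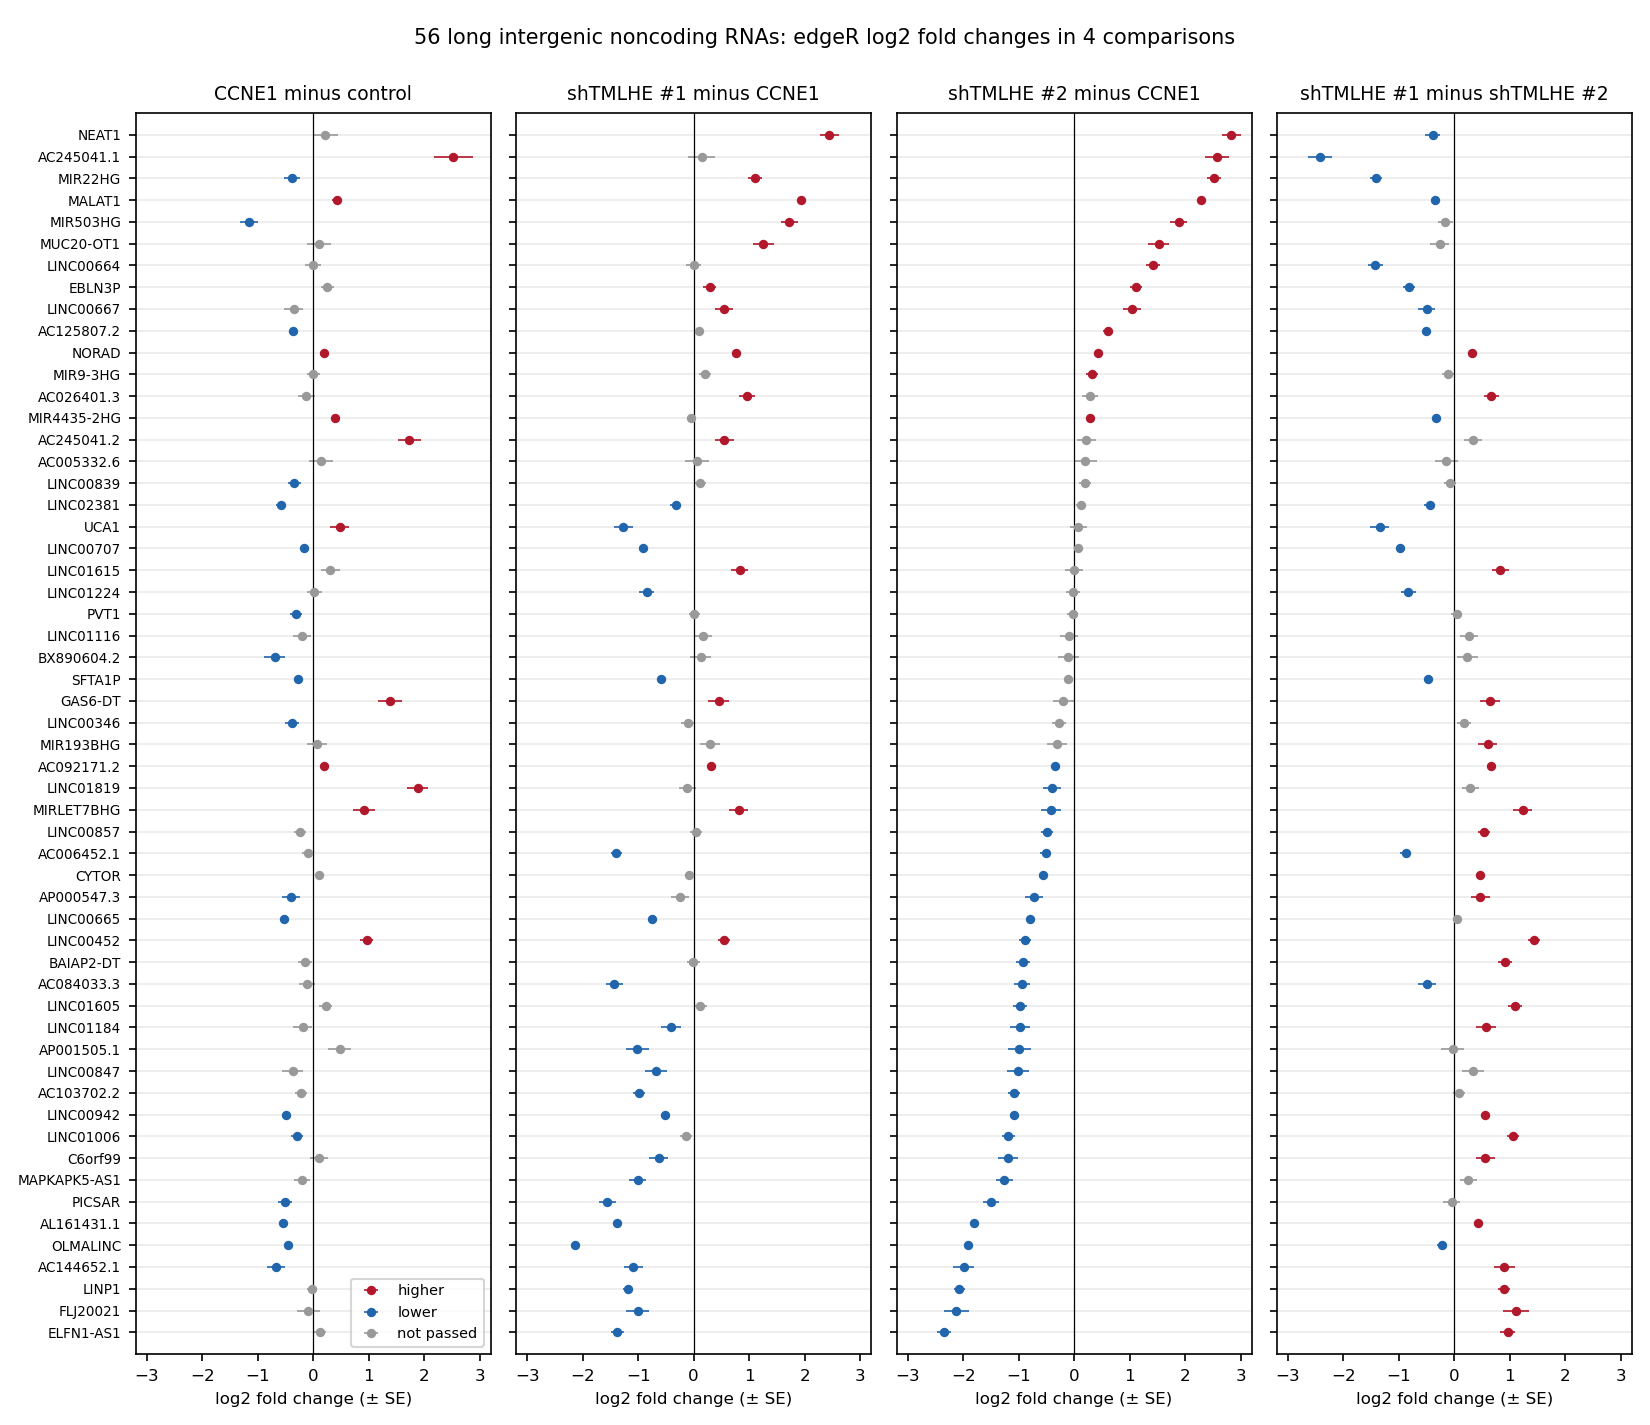
Log2 fold change with its standard error (horizontal axis) of 56 of the 57 lincRNAs (rows, ordered by shTMLHE #2 minus CCNE1 overexpression) in 4 comparisons, with genes that passed an adjusted p of 0.05 in red (higher) or blue (lower) and the rest in grey. NEAT1 had the largest rise with shTMLHE #2, 2.84, and ELFN1-AS1 the largest fall, to -2.34, while with CCNE1 overexpression the range ran from -1.15 for MIR503HG to 2.53 for AC245041.1.

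The scaling between libraries moved the hairpin counts. When totals of counts were used with no scaling factor, the median of all genes shifted to 0.427 with shTMLHE #1 and 0.558 with shTMLHE #2, and the lincRNAs split into 31 higher and 19 lower with shTMLHE #1 and into 27 higher and 21 lower with shTMLHE #2. The share of higher genes among all calls was then 75.9% and 70.7% in place of 50% and 50.4%. GC content moved with all of these comparisons: over 15373 genes the Spearman correlation of the log2 difference with transcript GC was -0.379 with CCNE1 overexpression, -0.369 with shTMLHE #1 and -0.637 with shTMLHE #2, and over the 57 lincRNAs it was -0.066, -0.152 and -0.374, points that share the same libraries. The 29 lincRNAs at or above the median GC of 49.5% had a median log2 difference of -0.89 with shTMLHE #2, with 5 higher and 18 lower, and the 28 below it had -0.06, with 8 higher and 10 lower. In a fit in which the trend of counts with GC content and transcript length was removed from each library, these medians were -0.13, with 11 higher and 12 lower, and -0.26, with 6 higher and 14 lower. Values from that fit, called trend removed below, are given beside lincRNAs described singly where they end a call, turn a called direction or move the value by over 1.5 times.

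**Figure D2:**
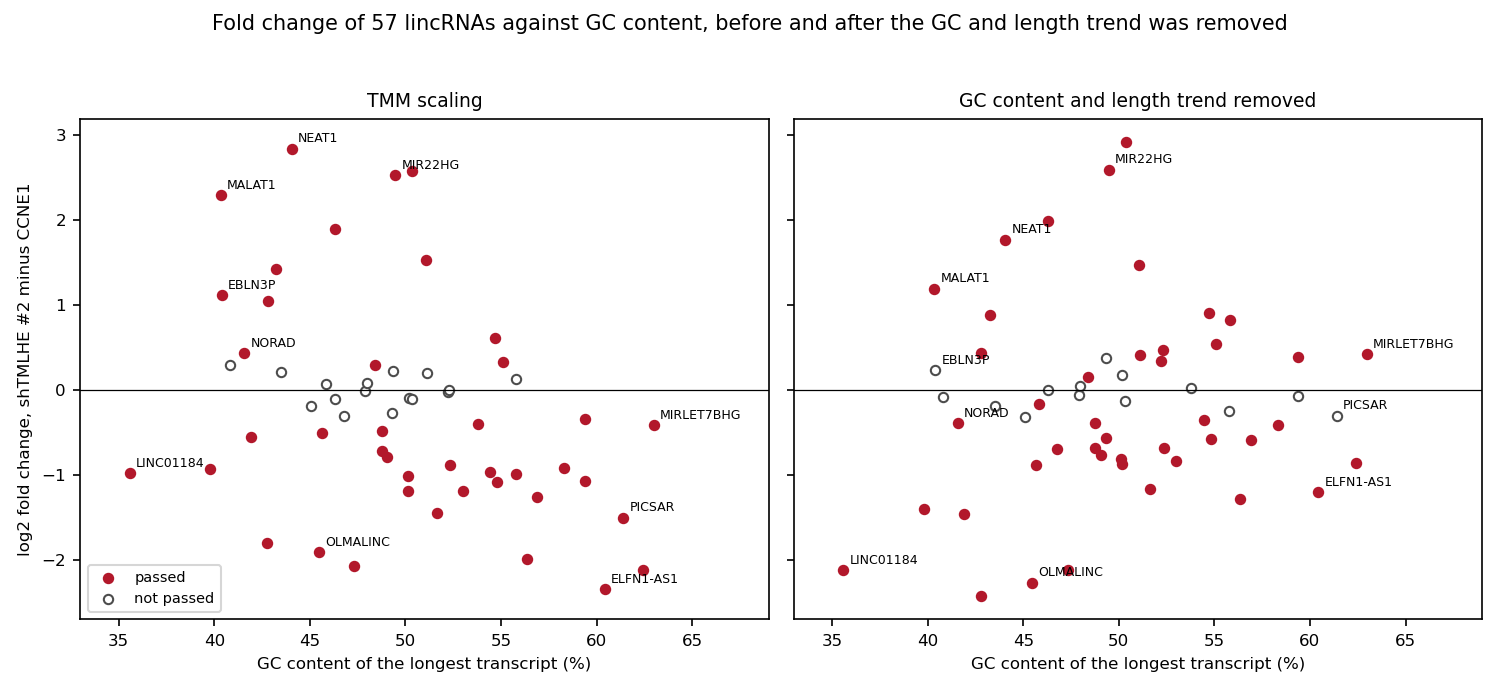
GC content of the longest transcript (horizontal axis, percent) against the log2 fold change of shTMLHE #2 minus CCNE1 overexpression (vertical axis) for the 57 lincRNAs, with TMM scaling on the left and with the GC content and length trend removed on the right, filled where the adjusted p was under 0.05. LincRNAs of higher GC lay lower on the left (Spearman correlation -0.374), MALAT1 and NEAT1 stayed above 0 in both panels at 1.19 and 1.76 on the right, and NORAD moved from 0.43 to -0.39.

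MALAT1 and NEAT1, nuclear RNAs from neighbouring genes on chromosome 11 (GRCh38, 65497688 to 65506516 and 65422774 to 65445540, plus strand), were several times higher with either hairpin. MALAT1 gathers at nuclear speckles, and NEAT1 is the scaffold of paraspeckles. MALAT1 and the longest transcript of NEAT1 do not end in an ordinary poly(A) tail. RNase P cuts their 3' end, and U-rich stretches upstream fold onto an A-rich tract to shield it. Counts are per gene, so the annotated transcripts of each gene were not told apart. Whether the RNA was selected by poly(A) tails is not given in the sources used here, so the counts of both RNAs reflect what any such step kept, and its part in these results was not tested. That end is shown for each transcript as annotated in GENCODE 29, read 5′ to 3′ on the transcript strand, because it is what the RNAs have in common. Capitals mark runs of at least 8 bases that the last 500 bases of both transcripts share, found by comparing the 2 ends with each other.
MALAT1, bases 8256 to 8355: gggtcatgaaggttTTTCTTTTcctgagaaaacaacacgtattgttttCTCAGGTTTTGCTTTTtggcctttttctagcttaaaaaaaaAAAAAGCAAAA
NEAT1, bases 22644 to 22743: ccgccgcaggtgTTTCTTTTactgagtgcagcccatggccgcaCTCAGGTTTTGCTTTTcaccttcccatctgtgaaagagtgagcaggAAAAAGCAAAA
The longest shared run, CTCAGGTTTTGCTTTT, occurs in the last 500 bases of the longest transcript of 2 of 15373 tested genes on the transcript strand, MALAT1 and NEAT1 themselves. The A-rich run AAAAAGCAAAA, with which both stretches end, occurs there in 36 of them (0.234%).

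MALAT1 was counted at 23.4, 24.3 and 24.3 CPM in control, 33, 29.1 and 34.9 with CCNE1 overexpression, 119.98, 113 and 138 with shTMLHE #1 and 172, 157 and 142 with shTMLHE #2. Its control and CCNE1 overexpression libraries did not overlap, and every hairpin library lay more than 3 times above every CCNE1 overexpression library. The log2 difference was 0.43 ± 0.094 for CCNE1 overexpression minus control (SE, edgeR adjusted p = 0.00051), 1.94 ± 0.078 for shTMLHE #1 (adjusted p = 2.14e-18) and 2.29 ± 0.077 for shTMLHE #2 (adjusted p = 1.29e-20). With the trend removed, the rise with CCNE1 overexpression did not pass, at 0.06 (adjusted p = 0.731), and the hairpin values were 1.30 and 1.19, both past the threshold. The excess with shTMLHE #2 over shTMLHE #1, -0.35 as #1 minus #2 (adjusted p = 5.57e-05), had the other sign with the trend removed, 0.11.

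NEAT1 had the largest log2 difference of the 57 with shTMLHE #2. It averaged 37.3 raw counts in control and 53 with CCNE1 overexpression against 322 and 505 with the hairpins, so it reached the mean of 100 only through the hairpin groups, and its hairpin differences are given as a description with no test. It was counted at 1.53, 3.33 and 3.97 CPM in control, 3.36, 3.69 and 2.98 with CCNE1 overexpression, 18.1, 19 and 17.7 with shTMLHE #1 and 22.8, 25.2 and 24 with shTMLHE #2. Control and CCNE1 overexpression libraries overlapped (0.21 ± 0.22, adjusted p = 0.469), and the hairpin libraries stood apart from all others. The log2 difference was 2.44 ± 0.17 with shTMLHE #1 and 2.84 ± 0.17 with shTMLHE #2, and with the trend removed 1.69 and 1.76. The hairpins differed by -0.39 (#1 minus #2, adjusted p = 0.0139), a call that was lost without replicate 2 of shTMLHE #2 (-0.36, adjusted p = 0.0669) and with the trend removed (-0.07).

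The 15 genes for paraspeckle proteins did not move with NEAT1 in 1 direction, and their shares called lay near those of all genes with the hairpins (60.7% and 73%; 44.2% with CCNE1 overexpression). With CCNE1 overexpression 8 were higher and 3 lower, with shTMLHE #1 4 and 4, and with shTMLHE #2 6 and 5, while the trend-removed fit gave 7 and 4, 2 and 7, and 3 and 9, and unscaled totals 8 and 3, 12 and 0, and 11 and 1. SFPQ, a core paraspeckle protein, changed by 0.76 with CCNE1 overexpression, 0.11 with shTMLHE #1 and 0.88 with shTMLHE #2, whereas its partner NONO changed by -0.29, -0.37 and -0.39, all past the edgeR threshold. PSPC1, the third protein of that family, changed by 0.28 with CCNE1 overexpression and by -0.67 with shTMLHE #2, and its value with shTMLHE #1, -0.16, did not pass. Of 11 tested genes for RNase P and tRNA 3' end processing, 1 was higher and 6 lower with shTMLHE #1 and 3 and 6 with shTMLHE #2, against 3 and 2 with CCNE1 overexpression. POP5 and POP7, protein subunits of RNase P, were lower with shTMLHE #1 (-0.89 and -0.65) and with shTMLHE #2 (-1.04 and -1.09). With unscaled totals the whole list split into 4 higher and 2 lower with shTMLHE #1, and 6 and 3 with shTMLHE #2. The trend-removed fit gave 0 and 6 with each hairpin.

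NORAD, a cytoplasmic RNA of 1 exon on chromosome 20 (36045622 to 36050960, minus strand) that binds Pumilio proteins, was higher with each hairpin than with CCNE1 overexpression. Pumilio proteins repress messenger RNAs that carry the motif TGTANATA, and a stretch with a pair of adjoining matches is shown with the matches in capitals, because repeated motifs set this RNA apart among the 57.
NORAD, bases 1430 to 1469: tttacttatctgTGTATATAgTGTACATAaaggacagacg
The 5339-base transcript holds 15 matches on its own strand, the only strand searched. Of 1615 tested genes with a transcript within 10% of that length, 43.4% hold at least 1 match, the median is 0 and 1 gene holds at least as many as NORAD. Among the 57 lincRNAs 8 hold a match, and NEAT1 comes next with 6.

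NORAD stood at 64.2, 68.7 and 68.5 CPM in control, 83.3, 75.6 and 72.6 with CCNE1 overexpression, 129.7, 130.4 and 130.1 with shTMLHE #1 and 104, 103 and 105 with shTMLHE #2. Every hairpin library lay above every CCNE1 overexpression library, and every CCNE1 overexpression library above every control. The differences were 0.20 ± 0.055 (edgeR adjusted p = 0.00327), 0.76 ± 0.052 (adjusted p = 8.87e-16) and 0.43 ± 0.052 (adjusted p = 1.45e-09). Only the rise with shTMLHE #1 held its direction with the trend removed, at 0.35, whereas the CCNE1 value became -0.10 and the shTMLHE #2 value -0.39. Other genes hold 56.4% of the 31-base words of NORAD, most of them in OVCH1-AS1 (38.0%), which had a mean count of 0.8, so reads could be split between copies. Among Pumilio genes, PUM2 averaged 29.16 CPM in control, 39.1 with CCNE1 overexpression, 58.91 with shTMLHE #1 and 74 with shTMLHE #2. Its differences were 0.43, 0.59 and 0.92 (edgeR adjusted p = 3.89e-05, 8.86e-09 and 3.03e-14), and with the trend removed they were 0.09, 0.08 and -0.04, none past the threshold.

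Of the 6 lincRNAs named as microRNA hosts, 2 were higher and 2 lower with CCNE1 overexpression, 3 higher and none lower with shTMLHE #1, and 4 higher and 1 lower with shTMLHE #2. Of all genes, 44.2%, 60.7% and 73% were called in these comparisons. With the trend removed the hosts split into 2 higher and 1 lower, 3 and 0, and 5 and 1. With unscaled totals 6 were higher with shTMLHE #1, and 4 with shTMLHE #2 with none lower. A host transcript is cut by Drosha to release the microRNA hairpin, and the seed, bases 2 to 8 of the mature microRNA, selects its target messengers. Mature microRNAs from RefSeq (GRCh38.p14) that lie within the hosts described next are given with the seed in capitals, because the hosts are known for them. The mature forms were not measured.
hsa-miR-22-3p, in MIR22HG, chr17:1713914-1713935, minus strand: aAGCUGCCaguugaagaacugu
hsa-miR-503-5p, in MIR503HG, chrX:134546371-134546393, minus strand: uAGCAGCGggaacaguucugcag
hsa-let-7a-5p, in MIRLET7BHG, chr22:46112752-46112773, plus strand: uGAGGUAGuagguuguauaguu
hsa-let-7b-5p, in MIRLET7BHG, chr22:46113691-46113712, plus strand: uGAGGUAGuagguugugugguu
hsa-miR-570-3p, in MUC20-OT1, chr3:195699460-195699481, plus strand: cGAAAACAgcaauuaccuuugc
hsa-miR-4435, in MIR4435-2HG, chr2:111321061-111321082, minus strand, and in CYTOR, chr2:87629764-87629785, plus strand: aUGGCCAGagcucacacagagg
In all, 8 of the 57 hold 22 mature microRNA entries, and the let-7 pair of MIRLET7BHG shares the seed GAGGUAG.

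MIR22HG, on chromosome 17 (1711493 to 1717174, minus strand), had the largest rise of any microRNA host. It stood at 15.5, 13.7 and 11.6 CPM in control, 12.5, 11.1 and 8.05 with CCNE1 overexpression, 23.6, 25.7 and 18.6 with shTMLHE #1 and 61, 60.9 and 59.2 with shTMLHE #2. The shTMLHE #2 libraries were more than double any other library, and the shTMLHE #1 libraries lay between them and all others. The hairpin differences were 1.11 ± 0.13 (edgeR adjusted p = 2.67e-09) and 2.53 ± 0.12 (adjusted p = 1.61e-19), and the hairpins differed from each other by -1.41 ± 0.11 (adjusted p = 1.54e-13). Its fall with CCNE1 overexpression, -0.38 (adjusted p = 0.0257), was lost without control replicate 1 (-0.28, adjusted p = 0.172), without control replicate 2 (-0.38, adjusted p = 0.0615) or without CCNE1 replicate 3 (-0.22, adjusted p = 0.202), and with the trend removed (-0.29).

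MIR503HG, on chromosome X (134543337 to 134546632, minus strand), fell with CCNE1 overexpression and was high again in the hairpin groups. Its values were 13, 9.75 and 14.1 CPM in control, 6.57, 5.39 and 4.69 with CCNE1 overexpression, 19, 15.2 and 20.6 with shTMLHE #1 and 18.8, 21.8 and 20.6 with shTMLHE #2. The CCNE1 overexpression libraries were the lowest of all 12, and both hairpin groups lay above every control. MIR503HG averaged 86.67 raw counts with CCNE1 overexpression and entered through the other groups. That choice favours its fall there and its rises from that group with the hairpins. These differences, given with no test, were -1.15 ± 0.16 with CCNE1 overexpression, 1.72 ± 0.15 with shTMLHE #1 and 1.89 ± 0.15 with shTMLHE #2. The hairpins did not pass against each other (-0.16 ± 0.13, edgeR adjusted p = 0.298).

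MIRLET7BHG, host of let-7a and let-7b, rose with CCNE1 overexpression and further with shTMLHE #1. It was counted at 4.67, 4.12 and 4.3 CPM in control, 7.47, 7.76 and 9.44 with CCNE1 overexpression, 12.3, 14.9 and 16.2 with shTMLHE #1 and 6.7, 4.57 and 7.24 with shTMLHE #2. The shTMLHE #1 libraries were the highest, and the shTMLHE #2 libraries overlapped neither those nor the CCNE1 overexpression libraries. It averaged 57 raw counts in control, so its rise with CCNE1 overexpression, 0.91 ± 0.19, is given with no test. The hairpin differences were 0.81 ± 0.17 (edgeR adjusted p = 6.85e-05) and -0.42 ± 0.18 (adjusted p = 0.0324). The fall with shTMLHE #2 was lost without CCNE1 replicate 3 (-0.31, adjusted p = 0.152) or without shTMLHE #2 replicate 2 (-0.24, adjusted p = 0.254), and it was a difference of 0.11 with unscaled totals and 0.42 with the trend removed. The hairpins differed by 1.23 ± 0.17 (adjusted p = 4.93e-08), a call kept under those alternatives, with 0.60 where the trend was removed.

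MUC20-OT1, a spliced RNA beside the mucin gene MUC20 that holds miR-570, averaged 67.3 raw counts with CCNE1 overexpression against 182 and 263 with the hairpins, and so also entered through the hairpin groups. It stood at 3.42, 3.57 and 5.13 CPM in control, 5.38, 3.69 and 3.99 with CCNE1 overexpression, 11.5, 11.4 and 7.93 with shTMLHE #1 and 12.6, 12.6 and 11.9 with shTMLHE #2. Control and CCNE1 overexpression overlapped, and all hairpin libraries lay above them. The differences, given with no test, were 1.26 ± 0.19 with shTMLHE #1 and 1.52 ± 0.19 with shTMLHE #2. The pseudogene SDHAP1 holds 40.3% of its 31-base words, so its counts are uncertain.

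MIR4435-2HG and CYTOR, both tied to growth of cancer cells, share sequence on chromosome 2: 53.9% of the 31-base words of the longest MIR4435-2HG transcript occur in CYTOR, and 23.1% of those of CYTOR in MIR4435-2HG. MIR4435-2HG stood at 42.4, 39.6 and 47 CPM in control, 50.3, 59.5 and 59.6 with CCNE1 overexpression, 55.7, 52.8 and 56.8 with shTMLHE #1 and 69.9, 66.4 and 71 with shTMLHE #2. CYTOR stood at 51, 49.8 and 58.1 CPM in control, 54.7, 56.7 and 59.6 with CCNE1 overexpression, 54.5, 58.1 and 48.4 with shTMLHE #1 and 39.3, 38.6 and 38.5 with shTMLHE #2. With shTMLHE #2 the first was higher (0.29 ± 0.068, edgeR adjusted p = 0.00029) and the second lower (-0.55 ± 0.072, adjusted p = 1.06e-08). Summed, the pair averaged 96, 113, 109 and 108 CPM in control, CCNE1 overexpression, shTMLHE #1 and shTMLHE #2, and only the rise with CCNE1 overexpression passed (0.24 ± 0.056, adjusted p = 0.000451), with -0.06 and -0.07 for the hairpins. The value of CYTOR with shTMLHE #2 was -0.03 with unscaled totals, where it did not pass, and -1.46 with the trend removed. MIR4435-2HG alone rose with CCNE1 overexpression by 0.40 ± 0.074 (adjusted p = 2.53e-05).

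MIR9-3HG and MIR193BHG, hosts of miR-9 and of miR-193b with miR-365a, varied little. MIR9-3HG differed by 0.00, 0.21 and 0.33 in the CCNE1, shTMLHE #1 and shTMLHE #2 comparisons, and only the last passed (edgeR adjusted p = 0.00678), which it did not without CCNE1 replicate 3 (0.26, adjusted p = 0.052). MIR193BHG differed by 0.07, 0.29 and -0.31 and passed only between the hairpins (0.60, adjusted p = 0.00256).

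With CCNE1 overexpression the largest rises were those of AC245041.1, LINC01819, AC245041.2 and GAS6-DT, the only 4 past 2-fold, and MIR503HG was the only lincRNA to fall by 2-fold. All 4 averaged under 50 raw counts in control and reached the mean of 100 through the other groups, a choice that favours these rises. The rises are therefore described with no test. AC245041.1 and AC245041.2 overlap in position on chromosome 10 (47970043 to 47973496 and 47908064 to 47991850, minus strand). AC245041.1 stood at 0.488, 0.476 and 0.497 CPM in control, 2.84, 1.71 and 4.06 with CCNE1 overexpression, 3.78, 3.21 and 2.42 with shTMLHE #1 and 16.8, 16.2 and 17.8 with shTMLHE #2. It was under 0.5 CPM in all controls, overlapped between CCNE1 overexpression and shTMLHE #1, and was far higher with shTMLHE #2. Its mean raw counts were 6.33, 44.3, 55.7 and 357 in the same order, so it entered only through shTMLHE #2, and its difference there, 2.57 ± 0.22, is a description with no test. It differed by 2.53 ± 0.36 with CCNE1 overexpression, also with no test, and by 0.15 ± 0.24 with shTMLHE #1 (edgeR adjusted p = 0.614). No 31-base word of its longest transcript occurs in a gene elsewhere, but genes that overlap it in position, such as AC245041.2, were not searched. AC245041.2 stood at 2.51, 2.46 and 1.9 CPM in control, 7.39, 9.13 and 6.34 with CCNE1 overexpression, 9.92, 11.8 and 12 with shTMLHE #1 and 9.5, 7.63 and 9.65 with shTMLHE #2, with every control below every other library. It rose by 1.73 ± 0.21 with CCNE1 overexpression, but 78.5% of its 31-base words occur in the annexin gene ANXA8. That gene itself rose by 0.93 and had a mean count of 1832, so reads of ANXA8 could be counted there.

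LINC01819, on chromosome 2, stood at 2.51, 3.25 and 4.47 CPM in control, 11, 12.2 and 14.1 with CCNE1 overexpression, 12.2, 12 and 10.3 with shTMLHE #1 and 8.76, 10.3 and 9.31 with shTMLHE #2. The controls were below all other libraries, and the libraries with CCNE1 overexpression and shTMLHE #1 overlapped. Its rise with CCNE1 overexpression was 1.88 ± 0.19, given with no test because the control mean was 43.7 raw counts. It differed by -0.12 ± 0.16 with shTMLHE #1 (edgeR adjusted p = 0.539). Its fall with shTMLHE #2, -0.40 (adjusted p = 0.0219), was lost without CCNE1 replicate 3 (-0.30, adjusted p = 0.116), without shTMLHE #2 replicate 1 (-0.34, adjusted p = 0.0961) or without shTMLHE #2 replicate 3 (-0.39, adjusted p = 0.0581). The shTMLHE #2 value was 0.13 with unscaled totals and 0.02 with the trend removed.

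**Figure D3:**
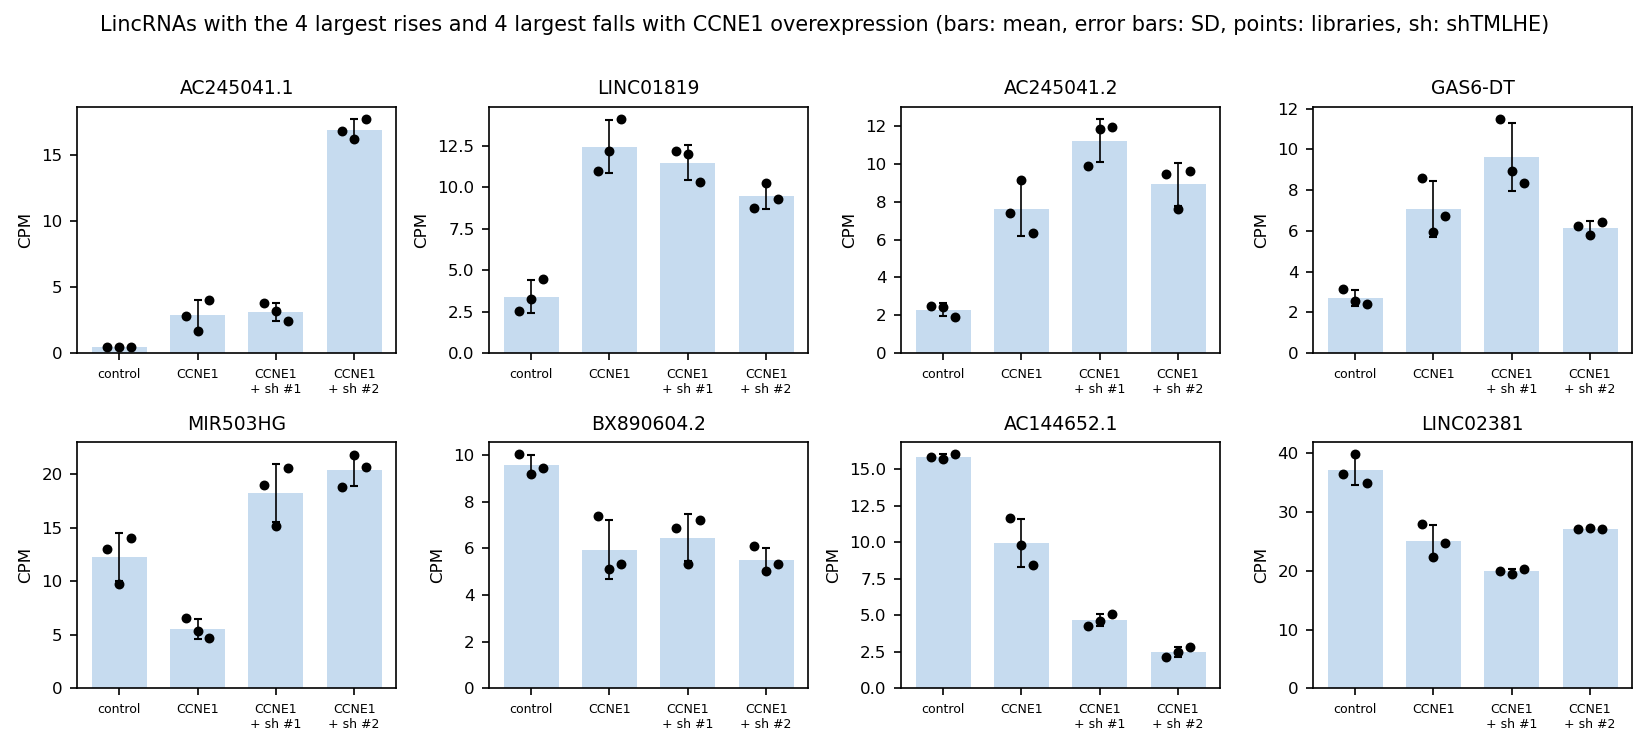
CPM (vertical axis, from 0) in each library (points) with group mean (bar) and SD (error bar) for the lincRNAs with the 4 largest rises (top) and the 4 largest falls (bottom) with CCNE1 overexpression, over control, CCNE1 overexpression and each hairpin group. The controls of the top 4 lie below every CCNE1 overexpression library, AC245041.1 reaches its highest mean, 16.9, with shTMLHE #2, and MIR503HG has its lowest mean, 5.55, with CCNE1 overexpression.

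The largest falls with CCNE1 overexpression after MIR503HG were those of BX890604.2, AC144652.1 and LINC02381. BX890604.2 stood at 10.04, 9.2 and 9.44 CPM in control and 7.39, 5.12 and 5.32 with CCNE1 overexpression. With shTMLHE #1 it stood at 6.85, 5.31 and 7.2 and with shTMLHE #2 at 6.08, 5.04 and 5.33, controls above all others. It averaged 92 raw counts with CCNE1 overexpression and entered through the other groups, a choice that favours its fall there. That fall was -0.70 ± 0.19, given with no test, and the hairpin values, 0.13 and -0.10, did not pass the edgeR threshold. LINC02381 stood at 36.5, 39.9 and 35 CPM in control, 27.9, 22.3 and 24.7 with CCNE1 overexpression, 19.997, 19.4 and 20.3 with shTMLHE #1 and 27, 27.3 and 27.1 with shTMLHE #2, again highest in control. It differed by -0.58 ± 0.093 with CCNE1 overexpression (edgeR adjusted p = 2.58e-06). Its value with shTMLHE #1, -0.32 (adjusted p = 0.00346), was 0.07 with unscaled totals and 0.04 with the trend removed. With shTMLHE #2 it was 0.13, which did not pass, but 0.82 with the trend removed, which did. Among the most abundant lincRNAs AL161431.1, LINC00942 and LINC00665 were lower with CCNE1 overexpression as well, by -0.54 ± 0.040, -0.49 ± 0.043 and -0.53 ± 0.054 (adjusted p = 3.94e-14, 3.34e-12 and 1.84e-10).

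Among the lincRNAs lower with a hairpin, OLMALINC had the largest fall with shTMLHE #1. This RNA, named for oligodendrocyte maturation, lies on chromosome 10 (100373513 to 100454043, plus strand) 26389 bases from the start of SCD, the stearoyl-CoA desaturase gene, on the same strand. It stood at 90.6, 88.7 and 92.6 CPM in control, 68.4, 65.5 and 64.7 with CCNE1 overexpression, 14.5, 13.6 and 17.1 with shTMLHE #1 and 18.8, 17.2 and 16.7 with shTMLHE #2. The controls were highest, CCNE1 overexpression came next without overlap, and all hairpin libraries were under 20 CPM. The differences were -0.45 ± 0.069 (edgeR adjusted p = 1.06e-06), -2.14 ± 0.080 (adjusted p = 6.03e-24) and -1.91 ± 0.077 (adjusted p = 2.02e-23). SCD itself differed by -0.10, -1.38 and -0.14 in these comparisons, and its last value was 0.39 with unscaled totals and -0.51 with the trend removed. Other genes hold 42.7% of the 31-base words of OLMALINC, 15.3% in KCNQ1OT1, so its reads could be split between them. The difference between the hairpins, -0.23 (adjusted p = 0.0232), was lost without replicate 1 or 2 of shTMLHE #1 (-0.21 and -0.16, adjusted p = 0.0771 and 0.166) or without replicate 1 of shTMLHE #2 (-0.18, adjusted p = 0.13), and with the trend removed (-0.003).

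AL161431.1 and LINC00942, the lincRNAs with the most counts, fell further in the hairpin groups. AL161431.1, whose longest transcript has 1 exon, on chromosome 13 (109269634 to 109278512, plus strand), stood at 481, 486 and 519 CPM in control, 353, 323 and 347 with CCNE1 overexpression, 129.9, 135 and 128 with shTMLHE #1 and 101, 97.2 and 95.4 with shTMLHE #2. No groups overlapped, from control at the top to shTMLHE #2 at the bottom, and the hairpin differences were -1.38 ± 0.042 (edgeR adjusted p = 4.62e-27) and -1.80 ± 0.042 (adjusted p = 3.95e-31), or -2.43 for the second with the trend removed. LINC00942 stood at 251, 256 and 262 CPM in control, 181, 180.4 and 187 with CCNE1 overexpression, 128, 121 and 134 with shTMLHE #1 and 87.4, 83.5 and 88.8 with shTMLHE #2. The groups kept that order without overlap, with differences of -0.52 ± 0.043 (adjusted p = 2.54e-13) and -1.08 ± 0.044 (adjusted p = 3.17e-23).

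LINP1, an RNA described as a scaffold for DNA repair by nonhomologous end joining, was lower with each hairpin. It stood at 38.3, 34.9 and 36.3 CPM in control, 35.8, 33.8 and 38 with CCNE1 overexpression, 15.4, 16.5 and 15.5 with shTMLHE #1 and 8.63, 8.43 and 8.53 with shTMLHE #2. Control and CCNE1 overexpression overlapped (-0.03 ± 0.091, edgeR adjusted p = 0.834), the shTMLHE #1 libraries lay below them and the shTMLHE #2 libraries below those. The falls were -1.18 ± 0.095 (adjusted p = 8.89e-14) and -2.07 ± 0.10 (adjusted p = 7.28e-21). Its neighbour LINC00707, the next lincRNA of the 57 on the same strand of chromosome 10, fell with shTMLHE #1 (-0.92 ± 0.071, adjusted p = 2.55e-14) and did not pass with shTMLHE #2 (0.07 ± 0.066, adjusted p = 0.347), where it was 0.60 with unscaled totals and -0.17 with the trend removed, past the threshold in both.

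ELFN1-AS1 and PICSAR, a pair of spliced RNAs with more than 60% GC, were also low in the hairpin groups. ELFN1-AS1 stood at 24.5, 26.1 and 29.1 CPM in control, 28.4, 29 and 29.2 with CCNE1 overexpression, 9.2, 11.3 and 12.8 with shTMLHE #1 and 5.75, 5.42 and 5.95 with shTMLHE #2. The shTMLHE #2 libraries were lowest and the shTMLHE #1 libraries next, without overlap. It differed by -1.38 ± 0.12 with shTMLHE #1 (edgeR adjusted p = 4.96e-13) and -2.34 ± 0.13 with shTMLHE #2 (adjusted p = 1.96e-19), and with the trend removed the values were -0.76 and -1.20. PICSAR, known from squamous carcinoma of the skin, stood at 26.3, 26.6 and 24.5 CPM in control, 19, 17.8 and 17.7 with CCNE1 overexpression, 4.49, 6.19 and 7.93 with shTMLHE #1 and 6.62, 6.64 and 5.89 with shTMLHE #2. Its hairpin libraries overlapped each other and lay below all others, with differences of -1.55 ± 0.15 (adjusted p = 8.24e-12) and -1.50 ± 0.14 (adjusted p = 5.65e-12), and with the trend removed the values were -0.91 and -0.30, the second of which did not pass (adjusted p = 0.055).

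AC084033.3 and AC006452.1 were among the 4 largest falls with shTMLHE #1. AC084033.3 stood at 15.8, 16.2 and 16.1 CPM in control, 15, 14.7 and 14.6 with CCNE1 overexpression, 4.99, 6.03 and 5.45 with shTMLHE #1 and 6.21, 8.06 and 9.14 with shTMLHE #2, with no overlap between groups. It averaged 96.67 raw counts with shTMLHE #1 and entered through the other groups, a choice that favours its fall there. That fall was -1.43 ± 0.15, given with no test, and the difference with shTMLHE #2 was -0.93 ± 0.15 (edgeR adjusted p = 4.36e-07). AC006452.1 stood at 42.4, 36.7 and 41.3 CPM in control, 40.6, 32.2 and 39.9 with CCNE1 overexpression, 13.2, 15 and 14.6 with shTMLHE #1 and 28.6, 24.1 and 25.9 with shTMLHE #2. Its shTMLHE #1 libraries were lowest and its shTMLHE #2 libraries lay between those and all others, with differences of -1.39 ± 0.10 (adjusted p = 5.19e-15) and -0.51 ± 0.094 (adjusted p = 7.98e-06), the second of which was 0.02 with unscaled totals.

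**Figure D4:**
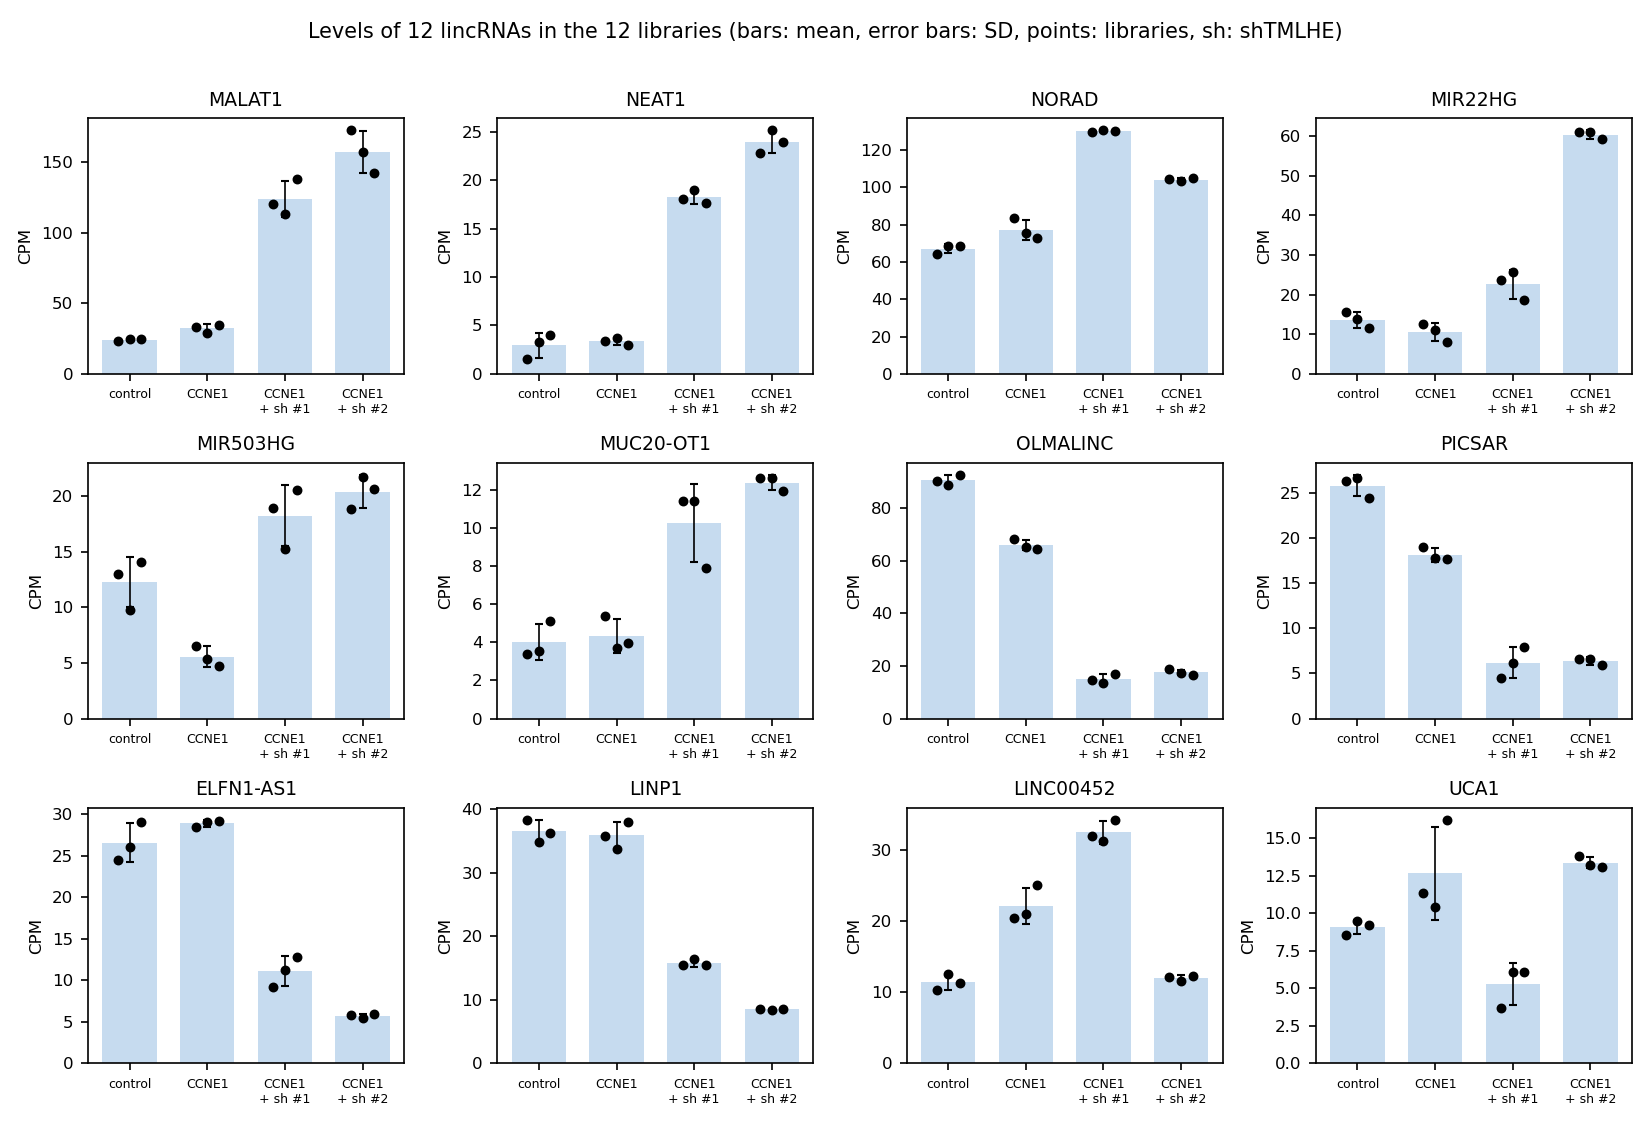
CPM (vertical axis, from 0) in each library (points) with group mean (bar) and SD (error bar) for 12 lincRNAs over control, CCNE1 overexpression, shTMLHE #1 and shTMLHE #2. MALAT1, NEAT1, NORAD, MIR22HG, MIR503HG and MUC20-OT1 are highest in the hairpin groups, OLMALINC, PICSAR, ELFN1-AS1 and LINP1 lowest there, and LINC00452 and UCA1 differ between the hairpins, at means of 32.5 against 12.0 CPM and 5.27 against 13.4 CPM.

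The hairpins differed from each other at several lincRNAs. LINC00452 rose with shTMLHE #1 and fell with shTMLHE #2. It stood at 10.4, 12.5 and 11.3 CPM in control, 20.5, 21 and 25.1 with CCNE1 overexpression, 32, 31.3 and 34.3 with shTMLHE #1 and 12.1, 11.6 and 12.3 with shTMLHE #2. The shTMLHE #1 libraries were the highest of all, while the shTMLHE #2 libraries overlapped the controls. The differences were 0.96 ± 0.12 (edgeR adjusted p = 1.09e-08), 0.55 ± 0.10 (adjusted p = 1.66e-05) and -0.89 ± 0.11 (adjusted p = 3.47e-09), and between the hairpins 1.44 ± 0.11 (adjusted p = 9.59e-15). It lies on chromosome 13 beside GAS6-DT and GAS6, which encodes a ligand of the TAM receptor kinases, its start 24239 bases from that of GAS6 on the other strand. GAS6 differed by 0.74 with CCNE1 overexpression, 0.07 with shTMLHE #1, which did not pass (adjusted p = 0.126), and -1.40 with shTMLHE #2. With shTMLHE #1 it did pass at 0.46 with unscaled totals and 0.45 with the trend removed (adjusted p = 4.39e-13 and 1.27e-13).

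LINC00664 was higher with shTMLHE #2 than in any other group. It stood at 8.64, 7.37 and 8.61 CPM in control, 7.32, 8.36 and 8.74 with CCNE1 overexpression, 8.49, 7.91 and 8.05 with shTMLHE #1 and 21.4, 21.9 and 22.5 with shTMLHE #2. All shTMLHE #2 libraries were above 21 CPM and all others under 9, and the differences were 1.42 ± 0.13 (edgeR adjusted p = 1.79e-12) and, between the hairpins, -1.43 ± 0.13 (adjusted p = 2.27e-12). UCA1, an RNA first described in urothelial carcinoma, stood at 8.57, 9.52 and 9.19 CPM in control, 11.4, 10.5 and 16.2 with CCNE1 overexpression, 3.67, 6.08 and 6.05 with shTMLHE #1 and 13.8, 13.2 and 13.1 with shTMLHE #2. Its shTMLHE #1 libraries were the lowest, at a mean of 92.33 raw counts, so UCA1 entered through the other groups. Differences of the shTMLHE #1 group are favoured by that choice and given with no test. They were -1.27 ± 0.18 against CCNE1 overexpression and -1.35 ± 0.17 between the hairpins. With shTMLHE #2 it differed by 0.08 ± 0.16 (adjusted p = 0.667). Its rise with CCNE1 overexpression, 0.48 (adjusted p = 0.0218), was lost without control replicate 1 (0.44, adjusted p = 0.0753) or without CCNE1 replicate 3 (0.26, adjusted p = 0.249). LINC01605 stood at 15.9, 12.4 and 17 CPM in control, 17.6, 17.8 and 17.4 with CCNE1 overexpression, 20.2, 18.8 and 18.3 with shTMLHE #1 and 9.41, 8.9 and 8.58 with shTMLHE #2, lowest with shTMLHE #2, and the hairpins differed by 1.09 ± 0.12 (adjusted p = 7.16e-10). Against CCNE1 overexpression its value with shTMLHE #2 was -0.97, or -0.36 with the trend removed.

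PVT1, the neighbour of MYC, and EBLN3P, a remnant of a bornavirus-like gene, complete the lincRNAs of known name. PVT1 stood at 32.9, 25.7 and 29.3 CPM in control, 27, 22.8 and 21.4 with CCNE1 overexpression, 22.7, 26.6 and 22.2 with shTMLHE #1 and 22.8, 24.2 and 22.7 with shTMLHE #2, with overlap between all groups except control and shTMLHE #2. Its fall with CCNE1 overexpression, -0.31 ± 0.11 (edgeR adjusted p = 0.0157), was lost without control replicate 1 (-0.22, adjusted p = 0.141), without CCNE1 replicate 3 (-0.24, adjusted p = 0.0893) and with the trend removed (-0.15), and the hairpin values were 0.01 and -0.03, neither past the threshold. With shTMLHE #2 it passed at 0.50 with unscaled totals and 0.34 with the trend removed. EBLN3P stood at 12.5, 11.2 and 11.2 CPM in control, 12.1, 15.4 and 13.9 with CCNE1 overexpression, 17.6, 17.8 and 15.4 with shTMLHE #1 and 30.7, 30.5 and 28.7 with shTMLHE #2, its shTMLHE #2 libraries well above the rest. The rise was 1.11 ± 0.11 with shTMLHE #2 (adjusted p = 1.12e-11), but 0.23 with the trend removed (adjusted p = 0.0554). With shTMLHE #1 it was 0.29 (adjusted p = 0.0286), lost without any 1 of 4 single libraries (0.20 to 0.29, adjusted p = 0.0501 to 0.148) and -0.12 with the trend removed.

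A subset of 10 lincRNAs start within 1000 bases of a coding gene's start on the other strand, and with shTMLHE #2 1 of these was higher and 8 were lower, with a median of -1.08, against 12 and 20 of the other 47, with a median of -0.10. The split was 2 higher and 7 lower with the trend removed (median -0.71) and 1 and 7 with unscaled totals (median -0.55), and the 10 had a median GC of 54.7% against 49.0%. They were grouped after results were known, so no test was run. With shTMLHE #1 3 were higher and 5 lower, and between the hairpins 8 were higher with #1 and 1 with #2. Over all genes 73% were called with shTMLHE #2 (36.8% higher, 36.2% lower), 60.7% with shTMLHE #1 and 60.3% between the hairpins. The promoter windows of 3 pairs are shown from RefSeq (GRCh38.p14), because they hold the stretch between the annotated starts. That stretch is whole for GAS6-DT and in part for AC144652.1 and BAIAP2-DT. Each is read 5′ to 3′ on the strand named, with the bases between both annotated starts that fall in the window in capitals.
GAS6-DT and GAS6, chr13:113863927-113864226, plus strand: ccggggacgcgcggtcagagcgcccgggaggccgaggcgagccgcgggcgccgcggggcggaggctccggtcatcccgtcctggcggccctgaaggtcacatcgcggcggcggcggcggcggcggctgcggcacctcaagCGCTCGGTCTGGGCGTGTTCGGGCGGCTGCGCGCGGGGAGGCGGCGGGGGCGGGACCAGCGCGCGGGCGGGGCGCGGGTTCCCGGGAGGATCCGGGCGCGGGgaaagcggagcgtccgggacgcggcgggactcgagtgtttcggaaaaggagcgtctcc
AC144652.1 and INSIG1, chr7:155297628-155297927, plus strand: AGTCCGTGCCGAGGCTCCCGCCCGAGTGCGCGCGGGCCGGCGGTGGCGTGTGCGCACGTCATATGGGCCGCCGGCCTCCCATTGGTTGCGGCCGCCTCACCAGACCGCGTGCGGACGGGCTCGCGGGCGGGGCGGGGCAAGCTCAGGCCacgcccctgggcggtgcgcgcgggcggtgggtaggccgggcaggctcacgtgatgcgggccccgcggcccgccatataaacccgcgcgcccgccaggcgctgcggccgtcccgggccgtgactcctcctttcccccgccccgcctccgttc
BAIAP2-DT and BAIAP2, chr17:81034670-81034969, minus strand: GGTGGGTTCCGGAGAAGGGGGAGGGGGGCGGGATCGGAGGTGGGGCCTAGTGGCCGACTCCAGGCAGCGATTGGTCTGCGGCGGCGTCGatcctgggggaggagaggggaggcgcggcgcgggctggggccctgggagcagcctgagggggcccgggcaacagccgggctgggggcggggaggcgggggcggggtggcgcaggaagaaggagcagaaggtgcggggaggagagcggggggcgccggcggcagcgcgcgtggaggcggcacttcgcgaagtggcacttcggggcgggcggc
Their GC content is 79.7%, 78.3% and 77.3%, and they hold 56, 48 and 33 CG dinucleotides. Over the 27 lincRNAs with a promoter entry the median GC was 62.3%, against 58.7% over all 35116 entries.

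GAS6-DT rose with CCNE1 overexpression as its partner GAS6 did. It stood at 3.14, 2.54 and 2.4 CPM in control, 8.59, 5.94 and 6.72 with CCNE1 overexpression, 11.5, 8.96 and 8.35 with shTMLHE #1 and 6.25, 5.79 and 6.45 with shTMLHE #2, with all controls below all other libraries. It averaged 35.3 raw counts in control, so its rise with CCNE1 overexpression, 1.38 ± 0.22, is given with no test. The hairpin differences were 0.45 ± 0.18 (edgeR adjusted p = 0.0339) and -0.19 ± 0.19 (adjusted p = 0.362). The first of these was lost without CCNE1 replicate 2 (0.34, adjusted p = 0.145), without CCNE1 replicate 3 (0.42, adjusted p = 0.0768) or without shTMLHE #1 replicate 1 (0.30, adjusted p = 0.237). With shTMLHE #2, where the divergent RNA did not pass, GAS6 was at -1.40, or -0.40 with the trend removed.

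AC144652.1 and INSIG1, which holds the sterol sensor SCAP in the endoplasmic reticulum, moved apart in the hairpin groups. AC144652.1 stood at 15.8, 15.7 and 16.1 CPM in control, 11.7, 9.79 and 8.43 with CCNE1 overexpression, 4.27, 4.65 and 5.08 with shTMLHE #1 and 2.18, 2.5 and 2.86 with shTMLHE #2. No groups overlapped, and it differed by -0.68 ± 0.16 with CCNE1 overexpression (edgeR adjusted p = 0.000761). It averaged 82 and 52.3 raw counts with shTMLHE #1 and #2 and entered through the other groups, a choice that favours its hairpin falls. These were -1.09 ± 0.17 and -1.99 ± 0.18, given with no test, the last -1.28 with the trend removed. INSIG1 differed by -0.41, 0.31 and 0.52, all past the threshold, and by 0.27 and 0.31 in the hairpin groups with the trend removed. FLJ20021, which starts 498 bases from the calcineurin gene PPP3CA, stood at 8.78, 10.6 and 11.7 CPM in control, 11.9, 8.53 and 8.93 with CCNE1 overexpression, 3.23, 5.75 and 5.57 with shTMLHE #1 and 2.67, 2.21 and 1.74 with shTMLHE #2. It averaged 85 and 47.7 raw counts with shTMLHE #1 and #2 and entered in the same way, so its hairpin differences are given with no test. They were -1.01 ± 0.21 with shTMLHE #1 (-0.34 with the trend removed, short of the threshold) and -2.12 ± 0.22 with shTMLHE #2 (-0.86 with the trend removed). PPP3CA rose by 0.60 and 0.49, and the second value was -0.19 with the trend removed.

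The other pairs varied. LINC01184 averaged 89.67 raw counts with shTMLHE #2 and entered through the other groups, a choice that favours its fall there. That fall was -0.98, or -2.12 with the trend removed, given with no test. SLC12A2, a chloride cotransporter gene, rose with shTMLHE #2 by 2.91, or 1.97 with the trend removed. BAIAP2-DT and BAIAP2 were both lower with shTMLHE #2 (-0.92 and -0.81, edgeR adjusted p = 2.37e-08 and 7.95e-15), though BAIAP2 was at 0.16 with the trend removed. MAPKAPK5-AS1 fell with shTMLHE #2, to -1.26 (adjusted p = 1.77e-09) or -0.59 with the trend removed, beside 0.29 for MAPKAPK5, which turned sign with the trend removed (-0.43). LINC01006 fell, to -1.18 (adjusted p = 7.81e-12) beside 0.76 for RNF32 (adjusted p = 0.0407), a value that did not pass with the trend removed. MIR22HG was the exception that rose, beside -0.84 for WDR81, which did not pass with the trend removed, at -0.09. The strand setting of the counting is not given in the sources used here, and MAPKAPK5-AS1 shares 34.6% of its exon bases with other genes, so its reads could not be told apart from theirs if strand was not used.

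**Figure D5:**
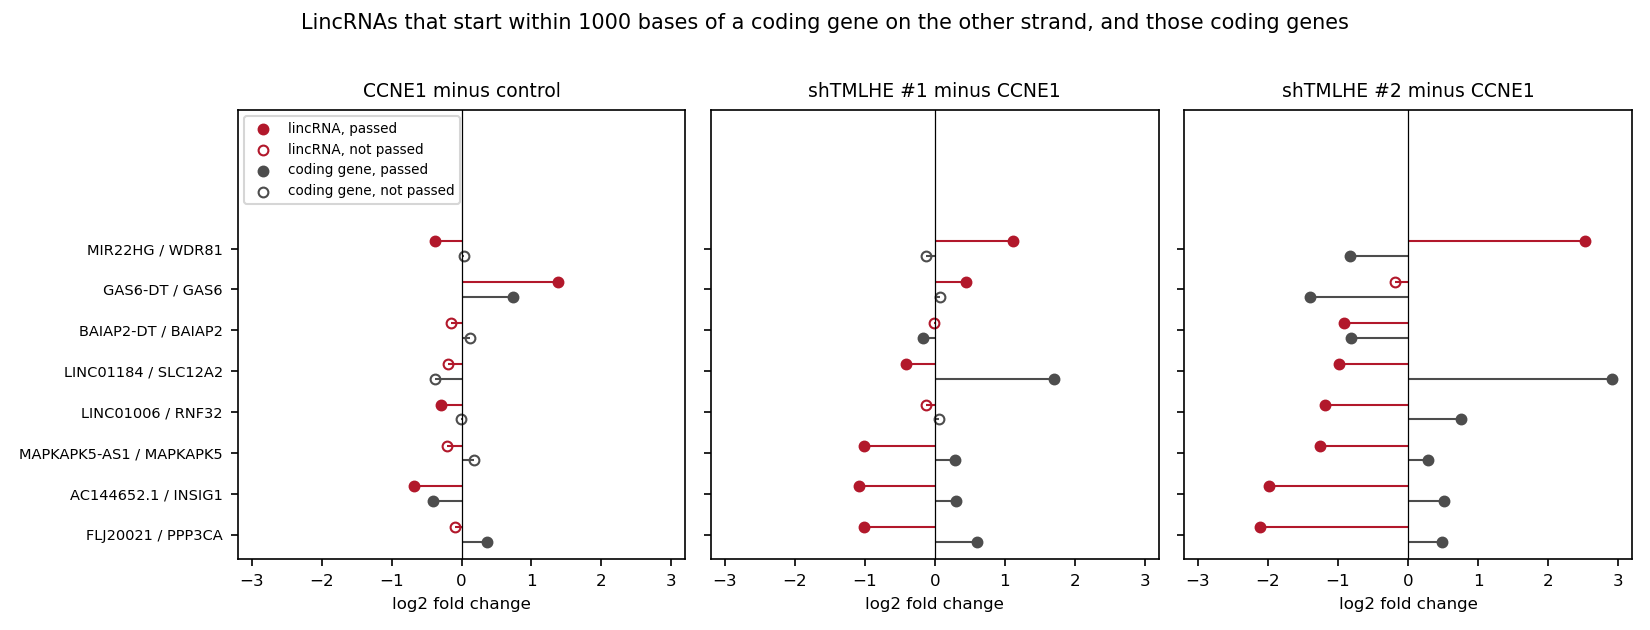
Log2 fold change (horizontal axis) of 8 lincRNAs (red) and of the coding genes that start within 1000 bases on the other strand (grey), filled where the adjusted p was under 0.05, in 3 comparisons. With shTMLHE #2 the plotted lincRNAs other than MIR22HG and GAS6-DT ran from -0.92 for BAIAP2-DT to -2.12 for FLJ20021. Among these, AC144652.1, FLJ20021 and LINC01184 are described with no test. Coding partners ran from -1.40 for GAS6 to 2.91 for SLC12A2.

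Genes for machinery that trims or decays noncoding RNA were counted by list, to be read against the 44.2%, 60.7% and 73% of all genes called with CCNE1 overexpression, shTMLHE #1 and shTMLHE #2. Of 22 genes for the nuclear RNA exosome and its adaptors, 9 were higher and 1 lower with CCNE1 overexpression, 11 and 6 with shTMLHE #1, and 12 and 7 with shTMLHE #2. With the trend removed the splits were 6 and 3, 6 and 9, and 6 and 10, and with unscaled totals 8 and 1, 15 and 4, and 17 and 4. MTREX, the helicase that feeds RNA to the exosome, changed by 0.99, 0.74 and 1.21 in these comparisons, while the core subunits EXOSC4 and EXOSC5 changed by -1.01 and -1.28 with shTMLHE #1 and by -1.82 and -1.88 with shTMLHE #2 (all past the edgeR threshold). Of 14 genes for nonsense-mediated decay, 3 were higher and 5 lower with CCNE1 overexpression, 7 and 3 with shTMLHE #1, and 8 and 4 with shTMLHE #2. SMG1, the kinase of that pathway, rose by 1.40 and 1.89 with the hairpins, and UPF1, the helicase it phosphorylates, by 0.11 with shTMLHE #1, and fell to -0.70 with shTMLHE #2. With the trend removed that list split into 0 and 4, 5 and 5, and 4 and 3, and with unscaled totals into 3 and 7, 13 and 0, and 11 and 2. Of 21 genes for the Integrator and for polyadenylation, 8 were higher and 5 lower with CCNE1 overexpression, 1 and 11 with shTMLHE #1, and 6 and 10 with shTMLHE #2. CPSF1, a subunit of the complex that reads the polyadenylation signal, changed by -1.92 and -1.39 with the hairpins. With unscaled totals the list split into 14 higher and 2 lower with shTMLHE #1 and 14 and 6 with shTMLHE #2. The trend-removed fit gave 2 and 10 with shTMLHE #1 and 3 and 15 with shTMLHE #2.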

How the data were processed

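RNA-seq of 12 libraries in 4 groups of 3, placed by their labels, was used. The deposited counts are whole numbers per gene that the authors left unscaled. STAR 2.6.1, DESeq2 and GRCh38 are named per the submitters' processing notes. For the counter, its strand setting, reads with several matches and any poly(A) selection, nothing was found in the labels or headers. NEBNext Ultra 2 libraries came from total RNA, per the labels' protocols. The deposited FPKM are those counts over gene length and a library size 0.819 to 1.21 times the column total, and served an alternative only. Deposited gene lengths equalled GENCODE 29 exon lengths for 100% of the genes, and coordinates and transcripts were taken from it.

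Counts were fitted in R 4.3.3 with edgeR 4.0.16 (filterByExpr by group, 15378 genes kept, TMM factors of 0.8473 to 1.228, robust quasi-likelihood fit on all 12 libraries, 8 residual degrees of freedom), with Benjamini-Hochberg adjustment over all tested genes and a threshold of 0.05. The trend-removed fit had natural splines with 5 degrees of freedom in GC content and transcript length as offsets. Alternatives used DESeq2 1.42.0, limma 3.58.1, other scalings and filters, the replicate block and each library left out. Values in every library are given for the 4 largest rises and falls of each comparison among genes that passed with no overlap, and for lincRNAs of known role. The lincRNAs and the gene lists were chosen with earlier results of these data known. Replicate numbers did not pair libraries: same-number correlations of deviations ran from -0.046 to 0.026 over 18 pairs. Copies were counted as 31-base words of the longest transcript of each lincRNA that occur in transcripts of genes not overlapping it in position. The fits were tested on simulated data. Values of 1 lincRNA and of 1 listed gene are not reported here, and the lincRNA has no row in the plots that name each gene.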

Additional observations from a re-analysis of the deposited data

Results flagged for a closer look

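In 3 lincRNAs the hairpins moved in opposite directions with TMM scaling against CCNE1 overexpression, and the difference between hairpins passed the edgeR test with Benjamini-Hochberg adjustment. LINC00452 differed by 0.55 with shTMLHE #1 and -0.89 with shTMLHE #2, a difference of 1.4366 ± 0.107 (SE, adjusted p = 9.59e-15). MIRLET7BHG differed by 0.81 and -0.42, a difference of 1.2316 ± 0.169 (adjusted p = 4.93e-08). AC092171.2 differed by 0.31 and -0.34, a difference of 0.6537 ± 0.074 (adjusted p = 6.44e-10), with 52.9, 51.7 and 60.5 CPM in the shTMLHE #1 libraries and 34.8, 33.9 and 36.1 CPM in the shTMLHE #2 libraries. With the trend of GC content and length removed, the difference of AC092171.2 was 0.15 and did not pass (adjusted p = 0.0802). The opposite direction rested on the scaling for 2 of the 3: with shTMLHE #2, AC092171.2 was at 0.39 with the trend removed and 0.19 with unscaled totals, and MIRLET7BHG at 0.42 and 0.11.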

How the results depend on the processing

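Over the 4 comparisons 149 calls of lincRNAs were made, and 103 of them held in every alternative run (25 or 26 each), 37 were lost and 13 changed sign in at least 1, some of them both. Counts of higher and lower lincRNAs follow as CCNE1 overexpression, shTMLHE #1, shTMLHE #2 and #1 minus #2. Leaving out 1 library gave 9 to 12 and 14 to 18, 12 to 17 and 21 to 23, 12 to 15 and 27 to 29, and 22 to 23 and 16 to 17. The replicate block gave 11 and 17, 15 and 22, 13 and 28, and 23 and 17. A 2-fold minimum left 4 and 1, 5 and 12, 9 and 14, and 5 and 4. An adjusted p under 0.01 left 11 lower with CCNE1 overexpression. The 109 lincRNAs with a mean count of at least 50 gave 18 and 29, 25 and 39, 24 and 51, and 40 and 26. The 35 with at least 200 gave 5 and 15, 10 and 13, 11 and 16, and 13 and 14. The 35 that share no exon base gave 7 and 13, 8 and 16, 5 and 19, and 17 and 9, and the 38 with a mean of at least 100 in every group 5 and 16, 8 and 15, 9 and 19, and 16 and 13. Unscaled totals gave 31 and 27 higher with the hairpins. The causes were not tested.

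With unscaled totals the sign changed with shTMLHE #1 for MIR4435-2HG (0.35), CYTOR (0.31), LINC02381 (0.07), LINC01006 (0.26), BAIAP2-DT (0.39), LINC00346 (0.30) and LINC00664 (0.39). With shTMLHE #2 it changed for SFTA1P (0.42), AC092171.2 (0.19), AC006452.1 (0.017), PVT1 (0.50), LINC00857 (0.042), LINC01224 (0.51), LINC01819 (0.13), LINC01615 (0.53), MIRLET7BHG (0.11), LINC01116 (0.43) and BX890604.2 (0.43). With the trend removed it changed with CCNE1 overexpression for NORAD (-0.10) and CYTOR (-0.19), with shTMLHE #1 for LINC02381 (0.044) and EBLN3P (-0.12), and with shTMLHE #2 for NORAD (-0.39), LINC00707 (-0.17), AC092171.2 (0.39), PVT1 (0.34), LINC01819 (0.023), LINC01615 (0.47) and MIRLET7BHG (0.42). In #1 minus #2 it changed for MALAT1 (0.11), AC103702.2 (-0.39) and AC084033.3 (0.003). Adding the replicate block gave close values, such as 0.413 for MIRLET7BHG, 0.03 for LINC01819 and 0.006 for AC084033.3. Summed with CYTOR, MIR4435-2HG was at -0.074 with shTMLHE #2 and 0.012 in #1 minus #2. Depth limits the least counted lincRNAs, at a mean of 102.5 counts.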
